A study of Mus musculus with 7 samples.

Results

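Macrophages and the other myeloid cells that take up debris in muscle were followed here through 33 genes: the lineage factor Spi1 and the growth factor receptor gene Csf1r, scavenger and pattern receptors, Fc receptors with their signalling adaptors, integrins, the chains of C1q, phagosome and lysosome proteins, and surface and cytoskeletal proteins of leukocytes. Each gene was read from the probe sets that the platform annotation gives to it alone, and where there were several, the one brightest on average across the 7 arrays was taken. By that rule 33 of 33 genes were found, of 12393 genes in the table. The 4 knockout arrays held total RNA from the soleus, a slow postural muscle of the hindlimb, of mice labelled as knockout for Yin Yang 1 (Yy1), a zinc finger transcription factor. The 3 wild type arrays held soleus RNA of wild type mice. Both groups were 6 months old and of a mixed background of C57Bl/6 and 129. Which part of Yy1 was removed, in which cells and with what driver was not given in the labels read here. They also do not say that the arrays are of different animals, so the p-values rest on the spread between arrays, which may be technical.

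Macrophages arise under the control of PU.1, the protein of Spi1, and depend on signals through the CSF1 receptor. Resident macrophages of skeletal muscle lie between the fibres, and after injury monocytes from the blood join them, clear dead fibres and take part in repair. Several of their receptors, among them the activating Fc receptors and TREM2, carry no signalling motif of their own and act through the adaptors Fcer1g or Tyrobp, whose immunoreceptor tyrosine-based activation motif (ITAM) recruits the kinase SYK.

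The array values are intensities, taken to log2(intensity + 1), and every level and difference below is on that log2 scale unless given as a fold. Yy1 measured 8.39, 8.24, 8.48 and 8.29 log2 units in knockout arrays 1 to 4, against 9.32, 9.20 and 9.62 in wild type arrays 1 to 3. Yy1 was lower in knockout (log2 fold change -1.02, SE 0.10, limma adjusted p = 0.000213; two-sided exact permutation p = 0.0286, the smallest that 4 arrays against 3 allow). Of the 4 Yy1 probe sets, 3 were lower in knockout. Besides the set above, these changed by -1.70 (SE 0.14, wild type mean 9.75) and -0.77 (SE 0.15, wild type mean 6.81). The dimmest set was not lower (-0.06, adjusted p = 0.711). Genes of muscle fibres read near the top of the scale in both groups: actin (Acta1) measured 15.61 to 15.63 in knockout and 15.57 to 15.58 in wild type, and the slow myosin heavy chain Myh7 15.35 to 15.43 in knockout and 15.14 to 15.31 in wild type. Correlations over all genes lay between 0.9954 and 0.9969 within knockout, 0.9969 and 0.9973 within wild type and 0.9768 and 0.9873 between the genotypes.

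Knockout soleus had higher transcripts of nearly all of the 33 chosen macrophage and myeloid genes. The choice of these genes was made with earlier results of these data known. Of the 33 genes, 32 rose and 0 fell at an adjusted p under 0.05 (limma, Benjamini-Hochberg over all 12393 genes; 32 rose and 0 fell at an unadjusted p under 0.05), and Spi1 alone did not pass. Over the whole table, 17% of genes rose and 16% fell. The log2 fold changes of the 33 genes ran from 0.16 to 2.52 with a median of 1.05, while over all genes the median was 0.01 and the lower and upper quartiles were -0.14 and 0.16. In 31 of the 33 genes all knockout arrays lay above all wild type arrays, as they did in 20.5% of all genes. A rise of at least 2-fold was seen in 17 members, against 1.82% of all genes, and of at least 4-fold in 4, against 0.371% of all genes. In whole muscle RNA, more cells of a type and more RNA per cell cannot be told apart.

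**Figure D1:**
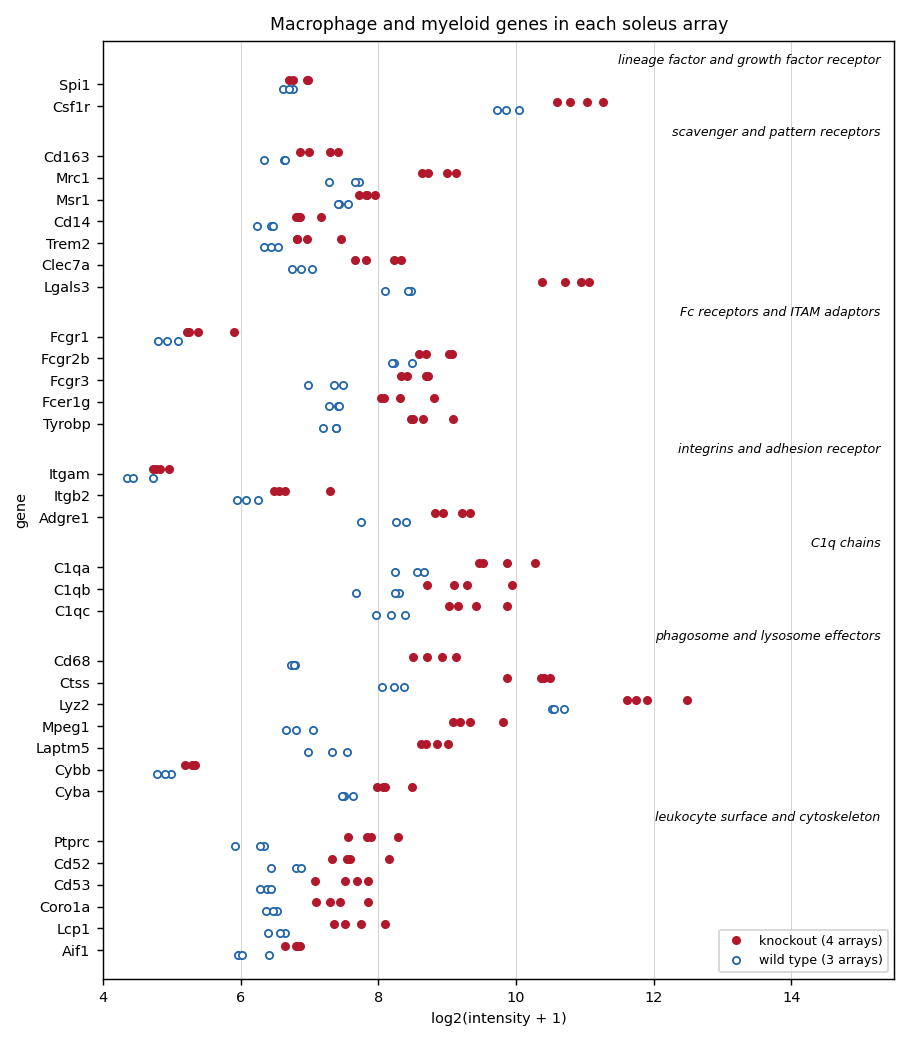
Log2(intensity + 1) of each of the 33 genes on each array, with filled red points for the 4 knockout arrays and open blue points for the 3 wild type arrays, and genes grouped by role. The points of the groups stand apart in 31 genes. In Spi1 and Itgam they overlap or touch.

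Promoters of genes that moved most and of neighbours that moved together are shown first, because PU.1 is known to bind purine-rich sites near the starts of many myeloid genes. The windows run from 250 bases before to 50 bases after the gene start, from RefSeq with coordinates of GRCm38.p6, 5′ to 3′ on the strand of the gene. A window was listed for 24 of the 33 genes. Where a gene had several, the first listed was used. The windows of Mpeg1 (chr19:12460520-12460819, plus strand), Lgals3 (chr14:47373610-47373909, plus strand), Ctss (chr3:95526536-95526835, plus strand) and Cd68 (chr11:69666121-69666420, minus strand) belong to the 4 largest rises. Those of C1qb (chr4:136886151-136886450, minus strand) and C1qc (chr4:136892865-136893164, minus strand) belong to 2 chains of one complex whose genes lie side by side. Capitals mark the letters GAGGAA, the core of the PU.1 site, or TTCCTC, the same letters read from the other strand.
Mpeg1: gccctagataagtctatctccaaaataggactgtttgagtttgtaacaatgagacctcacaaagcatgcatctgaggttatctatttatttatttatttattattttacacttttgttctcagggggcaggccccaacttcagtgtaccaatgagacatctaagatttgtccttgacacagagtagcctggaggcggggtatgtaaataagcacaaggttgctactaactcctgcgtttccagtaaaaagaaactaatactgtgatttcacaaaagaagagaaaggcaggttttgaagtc
Lgals3: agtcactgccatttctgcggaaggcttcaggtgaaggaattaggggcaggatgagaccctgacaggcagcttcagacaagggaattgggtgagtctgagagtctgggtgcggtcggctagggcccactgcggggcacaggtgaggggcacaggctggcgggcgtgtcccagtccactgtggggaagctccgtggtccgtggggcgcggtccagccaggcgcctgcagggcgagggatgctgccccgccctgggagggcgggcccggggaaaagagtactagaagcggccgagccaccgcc
Ctss: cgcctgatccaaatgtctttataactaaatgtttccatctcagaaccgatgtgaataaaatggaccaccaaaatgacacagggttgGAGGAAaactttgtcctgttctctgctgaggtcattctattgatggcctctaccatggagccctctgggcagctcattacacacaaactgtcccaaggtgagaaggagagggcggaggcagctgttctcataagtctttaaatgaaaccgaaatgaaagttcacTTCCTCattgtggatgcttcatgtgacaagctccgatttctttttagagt
Cd68: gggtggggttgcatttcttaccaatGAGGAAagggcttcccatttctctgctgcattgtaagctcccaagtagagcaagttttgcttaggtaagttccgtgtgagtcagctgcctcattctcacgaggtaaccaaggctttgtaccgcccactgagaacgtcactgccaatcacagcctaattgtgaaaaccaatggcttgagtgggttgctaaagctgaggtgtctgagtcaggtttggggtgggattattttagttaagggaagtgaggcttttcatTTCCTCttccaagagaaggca
C1qb: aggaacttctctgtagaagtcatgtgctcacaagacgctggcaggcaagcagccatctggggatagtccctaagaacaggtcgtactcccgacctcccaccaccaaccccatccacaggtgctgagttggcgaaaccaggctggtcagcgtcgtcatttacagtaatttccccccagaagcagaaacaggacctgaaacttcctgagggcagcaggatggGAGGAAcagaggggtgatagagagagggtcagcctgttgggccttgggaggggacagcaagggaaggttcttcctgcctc
C1qc: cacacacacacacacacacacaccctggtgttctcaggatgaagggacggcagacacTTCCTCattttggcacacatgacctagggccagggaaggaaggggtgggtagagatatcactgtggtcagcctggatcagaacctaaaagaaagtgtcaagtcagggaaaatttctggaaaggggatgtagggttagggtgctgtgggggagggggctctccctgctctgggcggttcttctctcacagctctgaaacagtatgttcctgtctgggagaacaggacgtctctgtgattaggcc

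The core GAGGAA, searched on both strands, stood in the windows of 15 of the 24 genes (62.5%) and in 28.3% of the windows of 27025 genes. In the window of Ctss it began 164 bases before the start and, on the other strand, at the start itself. In the window of Cd68 it lay 225 bases before and 29 bases after the start, in C1qb 30 bases before and in C1qc 193 bases before. The Mpeg1 and Lgals3 windows, from the 2 genes with the largest rises, did not hold these letters. The longer form GAGGAAGT, which contains the core, was found for Ctss, Cd53 and C1qc, 3 of 24 genes (12.5%), and in 3.28% of all windows. The letters CCATNTT, a core of sites bound by YY1, searched on both strands, stood in the windows of Ctss and Fcer1g, 2 of 24 genes (8.33%), and in 16.3% of all windows. A match of letters is a description of the window and not a measured site.

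The gene of the lineage factor itself, which read below the median level of all genes, moved least. Spi1 measured 6.69, 6.96, 6.76 and 6.98 in knockout and 6.76, 6.61 and 6.70 in wild type. The groups overlapped, since 1 wild type array equalled the second lowest knockout array, and the difference did not pass the test (log2 fold change 0.16, SE 0.09, adjusted p = 0.191). Csf1r, the receptor for the macrophage growth factors CSF1 and IL-34, measured 10.59, 11.03, 11.27 and 10.79 in knockout and 9.72, 9.85 and 10.05 in wild type. All knockout arrays lay above all wild type arrays, and Csf1r rose 2.07-fold (log2 fold change 1.05, SE 0.15, adjusted p = 0.00119). Its 2 dimmer probe sets also rose, by 0.51 (SE 0.13) and 0.72 (SE 0.19).

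All 7 genes grouped here as scavenger and pattern receptors, with the lectin gene Lgals3 counted among them, rose. Their log2 fold changes ran from 0.36 to 2.44 with a median of 0.60. The largest rise among them was in Lgals3, of galectin-3, a lectin that binds galactosides and is secreted by activated macrophages and other cells. It measured 10.37, 10.72, 11.06 and 10.95 in knockout and 8.47, 8.10 and 8.43 in wild type, a gap of over 1 log2 unit between the lowest knockout and the highest wild type array. The rise was 5.43-fold (log2 fold change 2.44, SE 0.16, adjusted p = 5.17e-05). Mrc1, the mannose receptor CD206 carried by resident tissue macrophages, measured 8.64, 9.0, 9.13 and 8.72 in knockout and 7.28, 7.71 and 7.67 in wild type. It rose 2.49-fold (log2 fold change 1.32, SE 0.14, adjusted p = 0.000285). Cd163, the receptor for haemoglobin bound to haptoglobin and likewise known from resident macrophages, measured 6.86, 7.29, 6.99 and 7.41 in knockout and 6.34, 6.63 and 6.64 in wild type. Its knockout arrays also lay above wild type, but by less, and the rise was 1.51-fold (log2 fold change 0.60, SE 0.14, adjusted p = 0.0115).

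Clec7a, of the beta-glucan receptor dectin-1, measured 8.23, 7.82, 8.33 and 7.66 in knockout and 6.74, 6.88 and 7.03 in wild type and rose 2.19-fold (log2 fold change 1.13, SE 0.16, adjusted p = 0.00107). Cd14, a coreceptor for lipopolysaccharide, measured 6.86, 6.84, 7.16 and 6.81 in knockout and 6.44, 6.47 and 6.23 in wild type. Knockout array 3 stood above the other knockout arrays, and Cd14 rose 1.45-fold (log2 fold change 0.54, SE 0.10, adjusted p = 0.00384). Trem2, a lipid receptor of macrophages and microglia that signals through Tyrobp, measured 6.82, 6.82, 7.46 and 6.96 in knockout and 6.44, 6.54 and 6.34 in wild type. Knockout array 3 was again the highest, and the rise was 1.49-fold (log2 fold change 0.57, SE 0.15, adjusted p = 0.0202). The Trem2 call was lost without wild type array 1 (adjusted p = 0.062) or 3 (0.0806), and its dimmer probe set measured 0.09 (SE 0.06, adjusted p = 0.325).

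Msr1, of the class A scavenger receptor, gave a small rise by its brightest probe set, from values of 7.72, 7.94, 7.84 and 7.82 in knockout and 7.56, 7.43 and 7.41 in wild type (log2 fold change 0.36, SE 0.07, adjusted p = 0.00434). None of its 3 dimmer probe sets passed the test. They measured -0.10 (adjusted p = 0.418), 0.20 (adjusted p = 0.146) and 0.26 (adjusted p = 0.0936).

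The 5 Fc receptor and adaptor genes all rose, with a median log2 fold change of 0.94. Tyrobp, of the ITAM adaptor DAP12, measured 8.50, 8.64, 9.08 and 8.47 in knockout and 7.20, 7.39 and 7.39 in wild type. It had the largest rise of the group, 2.55-fold (log2 fold change 1.35, SE 0.14, adjusted p = 0.000236). Fcer1g, of the common gamma chain that serves the activating Fc receptors, measured 8.03, 8.31, 8.80 and 8.09 in knockout and 7.28, 7.41 and 7.42 in wild type. The groups did not overlap, and Fcer1g rose 1.92-fold (log2 fold change 0.94, SE 0.17, adjusted p = 0.00322). Fcgr3, of the activating low-affinity IgG receptor FcγRIII, measured 8.33, 8.72, 8.69 and 8.42 in knockout and 6.97, 7.48 and 7.35 in wild type and rose 2.41-fold (log2 fold change 1.27, SE 0.14, adjusted p = 0.000292). Fcgr1, of the high-affinity IgG receptor, measured 5.38, 5.24, 5.90 and 5.22 in knockout and 4.93, 5.08 and 4.80 in wild type, low on the scale of the table. Its rise was 1.41-fold (log2 fold change 0.50, SE 0.16, adjusted p = 0.044), and the call was lost when knockout array 1 or 2 or any 1 of the wild type arrays was removed from the fit (0.0507 to 0.152), and also in a fit blocked on replicate number (0.0605).

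Fcgr2b, of the inhibitory IgG receptor, measured 8.69, 9.03, 9.07 and 8.58 in knockout and 8.23, 8.48 and 8.19 in wild type by its brightest probe set and rose 1.46-fold (log2 fold change 0.54, SE 0.13, adjusted p = 0.0147). That call was lost without wild type array 1 (adjusted p = 0.0577) or 3 (0.0645). The 3 dimmer Fcgr2b probe sets rose further, by 1.80 (SE 0.19), 1.14 (SE 0.18) and 0.84 (SE 0.12), with adjusted p between 0.000324 and 0.00215. Fcgr2b and Fcgr3 are similar in the sequence of their extracellular part, and binding of one transcript to probes of the other was not tested. Without wild type array 1 or 3, the number of the 5 genes called was 3.

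Integrin alpha M and beta 2 together form the receptor CR3 (Mac-1), which takes up particles coated with complement. Itgb2, the beta chain shared by leukocyte integrins, measured 6.49, 6.64, 7.30 and 6.56 in knockout and 5.94, 6.08 and 6.26 in wild type, with knockout array 3 the highest by over 0.5 log2 units. It rose 1.57-fold (log2 fold change 0.65, SE 0.19, adjusted p = 0.0277). Itgam, the alpha chain, measured 4.82, 4.96, 4.73 and 4.77 in knockout and 4.34, 4.73 and 4.44 in wild type, near the low end of the scale. The highest wild type value equalled the lowest knockout value, and the rise was 1.25-fold (log2 fold change 0.32, SE 0.10, adjusted p = 0.0382). Both calls depended on single arrays. Itgb2 lost its call without knockout array 2 (adjusted p = 0.0515) or any 1 wild type array (0.0506 to 0.101), and Itgam without knockout array 1, 2 or 4 or wild type array 1 or 3 (0.0638 to 0.135). Adgre1, of the macrophage surface protein F4/80, measured 9.21, 8.82, 9.33 and 8.93 in knockout and 7.74, 8.40 and 8.25 in wild type. Its groups did not overlap, and it rose 1.92-fold (log2 fold change 0.94, SE 0.17, adjusted p = 0.00355).

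The 3 chains of C1q, which starts the classical complement pathway and is made largely by macrophages, rose by nearly equal amounts. C1qa measured 9.52, 9.87, 10.28 and 9.46 in knockout and 8.24, 8.55 and 8.67 in wild type and rose 2.45-fold (log2 fold change 1.29, SE 0.20, adjusted p = 0.00135). C1qb measured 8.71, 9.29, 9.95 and 9.10 in knockout and 7.67, 8.30 and 8.24 in wild type and rose 2.28-fold (log2 fold change 1.19, SE 0.27, adjusted p = 0.0103). C1qc measured 9.02, 9.42, 9.87 and 9.15 in knockout and 7.97, 8.39 and 8.19 in wild type and rose 2.27-fold (log2 fold change 1.19, SE 0.19, adjusted p = 0.00197). In all 3 chains knockout array 3 was the highest of the 7 arrays and wild type array 1 the lowest. Of the dimmer C1qb probe sets, one rose by 0.56 (SE 0.12) and the other by 1.04 (SE 0.19). The genes for C1qb and C1qc are those whose windows are printed above, each with 1 match to the PU.1 core.

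Genes of the phagosome and lysosome held 3 of the 4 rises above 4-fold, and all 7 of this group rose (median log2 fold change 1.52). Mpeg1, of perforin-2, a pore-forming protein of phagocytes, measured 9.09, 9.33, 9.81 and 9.19 in knockout and 6.80, 6.65 and 7.04 in wild type. The gap between the groups was over 2 log2 units, and the 5.73-fold rise (log2 fold change 2.52, SE 0.17, adjusted p = 5.15e-05) ranked 18 by log2 fold change among all 12393 genes. Ctss, of the lysosomal protease cathepsin S, measured 10.40, 9.87, 10.50 and 10.36 in knockout and 8.23, 8.38 and 8.05 in wild type. It rose 4.18-fold (log2 fold change 2.06, SE 0.15, adjusted p = 6.01e-05), and in this gene knockout array 2 was the lowest of its group. Cd68, of a lysosomal glycoprotein used as a macrophage marker, measured 8.51, 8.71, 9.13 and 8.92 in knockout and 6.73, 6.79 and 6.77 in wild type. The wild type arrays lay within 0.06 log2 units of each other, and the rise was 4.15-fold (log2 fold change 2.05, SE 0.13, adjusted p = 4.33e-05).

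Laptm5, of a lysosomal membrane protein of blood cells, measured 9.01, 8.62, 8.85 and 8.70 in knockout and 6.97, 7.33 and 7.54 in wild type and rose 2.86-fold (log2 fold change 1.52, SE 0.14, adjusted p = 0.00015). Its 2 dimmer probe sets rose by 1.11 (SE 0.09) and 0.41 (SE 0.08). Lyz2, of the lysozyme of macrophages and granulocytes, measured 11.62, 11.90, 12.48 and 11.74 in knockout and 10.53, 10.55 and 10.70 in wild type and rose 2.53-fold (log2 fold change 1.34, SE 0.18, adjusted p = 0.000818). Lyz1 is nearly identical in sequence, and binding of its transcript to this probe set was not tested. The membrane subunits of the phagocyte NADPH oxidase, which makes superoxide in the phagosome, rose less. Cyba, of p22phox, which is also made outside the blood lineage, measured 7.97, 8.10, 8.49 and 8.07 in knockout and 7.50, 7.47 and 7.63 in wild type (log2 fold change 0.62, SE 0.12, adjusted p = 0.0042). Cybb, of gp91phox, measured 5.28, 5.33, 5.33 and 5.19 in knockout and 4.78, 4.98 and 4.90 in wild type, low on the scale, without overlap (log2 fold change 0.39, SE 0.07, adjusted p = 0.00233).

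Genes of surface and cytoskeletal proteins of leukocytes rose as well, 6 of 6, with a median log2 fold change of 1.05. Ptprc, of the phosphatase CD45 on all nucleated blood cells, measured 7.84, 7.89, 8.28 and 7.56 in knockout and 5.92, 6.34 and 6.27 in wild type. It had the largest rise of the group, 3.29-fold (log2 fold change 1.72, SE 0.16, adjusted p = 0.000172). Cd53, of a leukocyte tetraspanin, measured 7.52, 7.69, 7.84 and 7.08 in knockout and 6.37, 6.44 and 6.28 in wild type and rose 2.24-fold (log2 fold change 1.17, SE 0.16, adjusted p = 0.000834). Cd52, of a small lipid-anchored surface glycoprotein, measured 7.55, 7.59, 8.16 and 7.33 in knockout and 6.80, 6.44 and 6.88 in wild type and rose 1.93-fold (log2 fold change 0.95, SE 0.19, adjusted p = 0.00539). The actin-binding proteins were among the risers too. Lcp1, of L-plastin, measured 7.51, 7.75, 8.09 and 7.35 in knockout and 6.40, 6.65 and 6.57 in wild type and rose 2.20-fold (log2 fold change 1.14, SE 0.16, adjusted p = 0.000931), and its dimmer probe set rose by 0.52 (SE 0.15). Coro1a, of coronin-1A, measured 7.29, 7.44, 7.86 and 7.09 in knockout and 6.37, 6.53 and 6.47 in wild type and rose 1.95-fold (log2 fold change 0.96, SE 0.16, adjusted p = 0.00199). Of its dimmer probe sets, one rose by 0.73 (SE 0.10) and the dimmest measured 0.03 (SE 0.07, adjusted p = 0.757). Aif1, of the calcium-binding protein IBA1 of macrophages and microglia, measured 6.82, 6.80, 6.86 and 6.64 in knockout and 6.41, 5.96 and 6.01 in wild type and rose 1.57-fold (log2 fold change 0.65, SE 0.11, adjusted p = 0.00259).

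**Figure D2:**
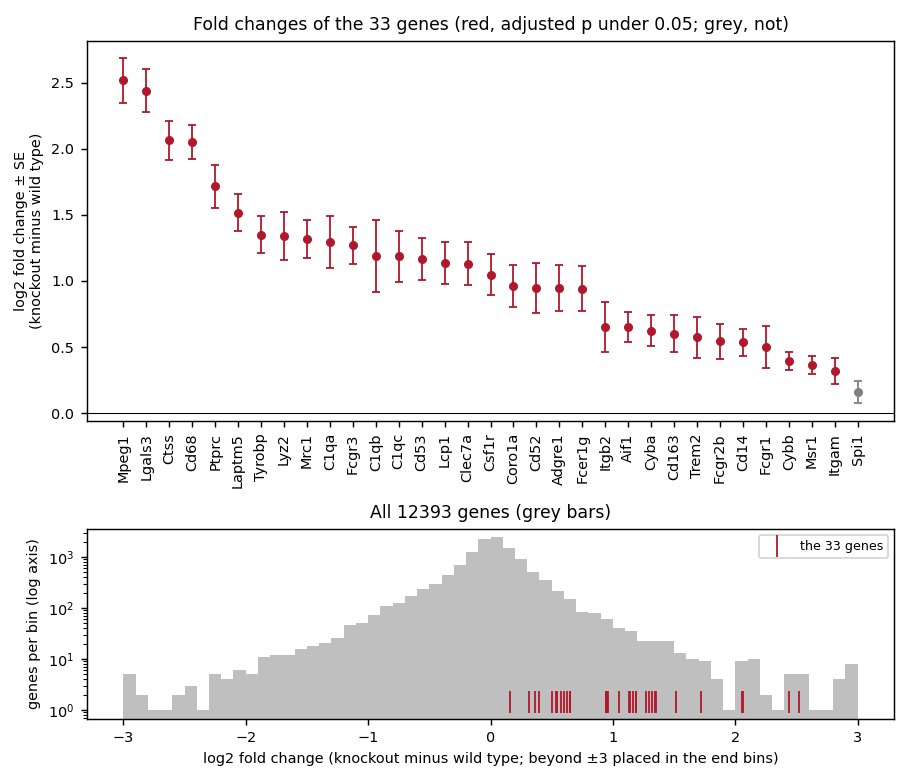
Upper panel, log2 fold change (knockout minus wild type, with SE bars) of the 33 genes in order of size, red where the adjusted p was under 0.05 and grey where not. Lower panel, histogram of the log2 fold changes of all 12393 genes on a log axis, with the 33 genes as red marks. The genes run from 2.52 (Mpeg1) to 0.16 (Spi1), and all lie above 0.

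In all, 8 of the 33 genes had more than 1 probe set, with 16 probe sets beside the brightest. Over all 22626 probe sets that are not controls, 14.3% rose. Of the 16, 11 rose and 0 fell at an adjusted p under 0.05. A log2 fold change under 50% of that of the brightest probe set, or of the opposite sign, was seen in 7 of them, and a larger one in the 3 of Fcgr2b.

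**Figure D3:**
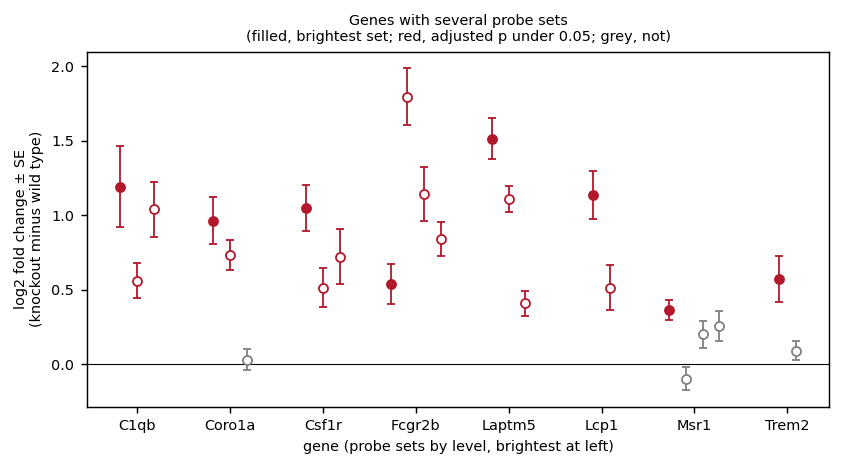
Log2 fold change (knockout minus wild type, with SE bars) of every probe set of the 8 genes with several, with the brightest probe set filled and at the left of its gene, red where the adjusted p over all probe sets was under 0.05 and grey where not. The brightest probe set of Fcgr2b gives the smallest rise of its 4, and among the dimmer sets of Msr1 one lies below 0.

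The knockout arrays were not alike in these genes. Knockout array 3 was the highest of the knockout arrays in 27 of 33 genes, and array 1 or 4 the lowest in 16 and 13. The median deviation of the 33 genes from the knockout mean was 0.32 log2 units in array 3, -0.16 in array 1, 0.00 in array 2 and -0.15 in array 4, while over all genes these medians lay between -0.01 and 0.01. The median SD of the 33 genes was 0.29 in knockout and 0.16 in wild type, against 0.10 and 0.08 over all genes. In 26 of the 33 the SD was larger in knockout. Without knockout array 3, 32 of the 33 genes were called higher. Among wild type arrays, array 1 was the lowest in 20 genes.

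**Figure D4:**
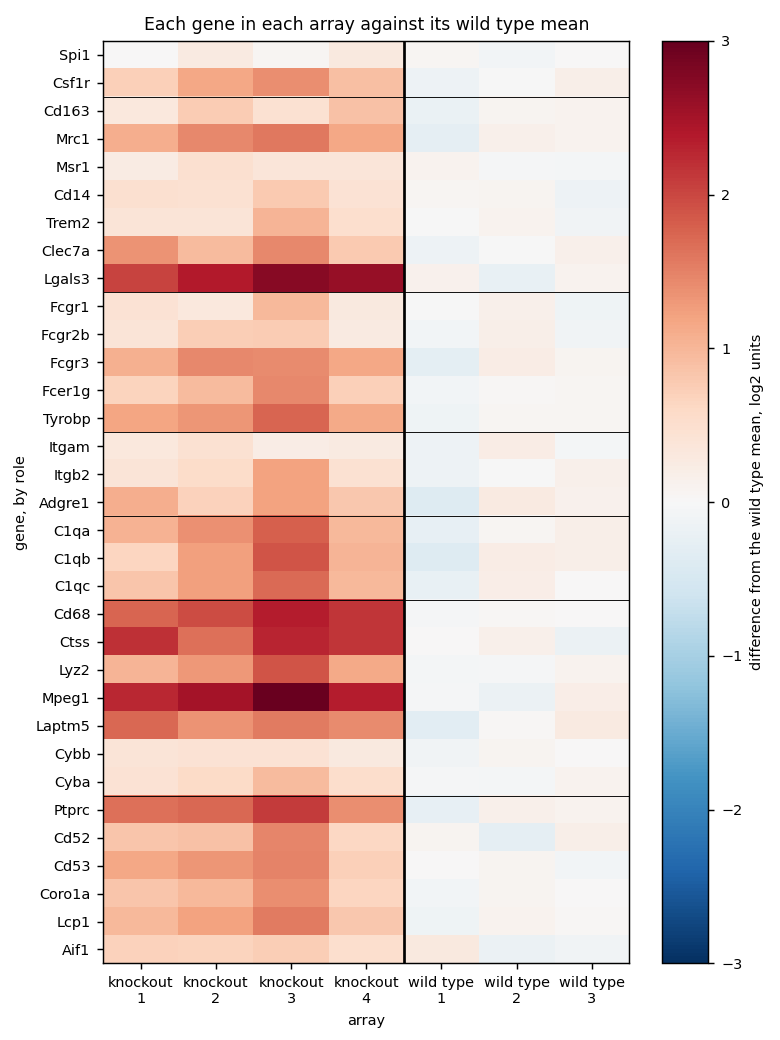
Difference of each gene on each array from the mean of its wild type arrays, in log2 units, with the 4 knockout arrays left of the 3 wild type arrays and genes in rows by role. Knockout array 3 has the darkest column, and the rows of Mpeg1, Lgals3, Ctss and Cd68 have the largest mean differences.

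Genes around the 33 were read from lists written from general knowledge of myeloid cells, but with earlier results of these data known. Among 12 Toll-like receptors and partners, 6 rose and 0 fell (median 0.21). Ly86, of MD-1, the partner of the Toll-like protein CD180, rose by 1.47 (SE 0.10, adjusted p = 6.01e-05). Tlr2, a receptor for bacterial lipoproteins, rose by 0.85 (SE 0.14) and Myd88, the adaptor of most Toll-like receptors, by 0.68 (SE 0.10). Without knockout array 3, 4 genes of this list were called higher and 1 lower (Tlr3, chosen after its values were seen). Among 11 leukocyte surface and cytoskeleton genes outside the 33, 4 rose and 0 fell (median 0.34). Plek, of the platelet and leukocyte protein pleckstrin, rose by 0.98 (SE 0.15), Cd48 by 0.96 (SE 0.21) and Cytip by 0.72 (SE 0.06).

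Of 12 measured genes of ITAM and integrin signalling, which act below the receptors, 3 rose and 0 fell (median 0.14), beside the 17% of all genes that rose: the adaptors Fyb, by 0.60 (SE 0.10), and Lcp2 (SLP-76), by 0.47 (SE 0.10), and the kinase Btk, by 0.36 (SE 0.08). None of the 3 measured cytosolic partners of the NADPH oxidase passed by limma, where 1 had an unadjusted p under 0.05. Ncf4 (p40phox) measured 0.35 (SE 0.15, adjusted p = 0.109) and the GTPase Rac2 0.28 (SE 0.13, adjusted p = 0.138). Ncf4 was called without knockout array 4 (adjusted p = 0.0402), and Rac2 in the fit blocked on replicate number (0.0249).

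Of 11 measured growth factors and transcription factors of the lineage, 3 were higher and 1 lower (median -0.05). The shares over all genes were 17% higher and 16% lower. Csf2ra, a receptor chain for GM-CSF, rose by 0.54 (SE 0.12), Cebpa by 0.42 (SE 0.12) and Irf8 by 0.31 (SE 0.09), while Nr1h3, of the oxysterol receptor LXRα, changed by -0.36 (SE 0.10). Cebpa lost its call without knockout array 2, 3 or 4 or wild type array 1 or 2 (adjusted p = 0.0655 to 0.113). Irf8 lost it without any array except knockout array 1 (0.0535 to 0.127), and Nr1h3 without knockout array 3 or 4 or wild type array 2 or 3 (0.0584 to 0.101). The number called higher was 1 without knockout array 2, 3 or 4 or wild type array 1 or 2.

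Of 9 genes of resident macrophages and the uptake of dying cells, 2 rose and 0 fell (median 0.13). Over all genes, 17% rose. Pf4, a chemokine of platelets also found in tissue macrophages, rose by 0.84 (SE 0.14), and the scavenger receptor Stab1 by 0.49 (SE 0.11). Of 11 genes tied to macrophage activation states, 3 rose and 0 fell (median 0.12), again beside 17% of all genes that rose. Gpnmb, a glycoprotein of lipid-laden macrophages, measured 7.81, 7.69, 8.30 and 7.94 in knockout and 6.30, 6.36 and 6.36 in wild type, and rose 3.02-fold (log2 fold change 1.59, SE 0.13, adjusted p = 8.85e-05). Apoe, a lipid carrier made by macrophages and other cells, rose by 1.17 (SE 0.18). Tgfb1 rose by 0.28 (SE 0.08), a call that was lost without knockout array 2, 3 or 4 or wild type array 1 or 3 (adjusted p = 0.0669 to 0.107). Without wild type array 1, 1 gene of the list was called lower (Il1b, chosen after its values were seen).

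Few markers of other blood cells passed the test, which 32.9% of all genes passed in either direction. Of 8 T cell, 5 B cell, 4 NK cell and 6 mast cell genes measured, 0 passed in either direction by limma, and at an unadjusted p under 0.05 only 1 NK cell gene did. That gene, Nkg7, measured 0.31 (SE 0.12, adjusted p = 0.0828) and was called without knockout array 1 (adjusted p = 0.0489) or wild type array 1 (0.0337). Among T cell genes the smallest p was that of Thy1, at 0.31 (SE 0.24, adjusted p = 0.365), and among B cell genes that of Cd22, at 0.09 (SE 0.08, adjusted p = 0.429). Thy1 measured 8.29 in knockout array 3, against 7.15 to 7.52 in the other knockout arrays. Cd3d, the T cell gene with the next smallest p, measured 6.09 there, against 5.81 to 6.21. Of 8 neutrophil genes, 0 rose and 1 fell, beside 17% and 16% of all genes. S100a9, of a calcium-binding protein abundant in neutrophils, changed by -0.57 (SE 0.18, adjusted p = 0.0398). Among the fits with 1 array left out, its call was kept only without wild type array 3 (otherwise adjusted p = 0.0525 to 0.139). The summed intensity of the neutrophil genes was 379.3 to 410.8 in knockout and 424.7 to 462.7 in wild type. The sums of the lymphoid lists overlapped between the groups. They were 635 to 819.2 in knockout and 633.3 to 656.6 in wild type for T cell genes, 282.5 to 316.4 in knockout and 266.4 to 298.1 in wild type for B cell genes, and 106 to 127.7 in knockout and 98.36 to 111.4 in wild type for NK cell genes. For mast cell genes the sum was 303.4 to 371.3 in knockout and 289.5 to 399.4 in wild type, which overlapped too. Each of these 4 lists held readings low on the scale. The lowest intensities were 18.9 (T cell), 19.13 (B cell), 19.42 (NK cell) and 20.37 (mast cell), and 19.31 among the 33 genes. Changes in genes that dim could be missed, so the lack of calls does not show that these cells were unchanged.

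Of 5 dendritic cell genes, Flt3 rose by 0.25 (SE 0.07) and Zbtb46 changed by -0.29 (SE 0.07). Flt3 lost its call without knockout array 3 or 4 or wild type array 1 or 2 (adjusted p = 0.0516 to 0.0935), and Zbtb46 with its probe sets averaged (0.0689). Of 2 red blood cell genes, Alas2, of the first step of haem synthesis in red cells, changed by -0.70 (SE 0.19), a call lost without knockout array 2 or wild type array 1 or 3 (adjusted p = 0.058 to 0.0988). The summed intensity was 289.1 to 310.5 in knockout and 269.5 to 279.2 in wild type for dendritic cell genes, and 101.1 to 154.2 in knockout and 162 to 222.3 in wild type for red blood cell genes.

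Markers of fibroblasts and blood vessels moved with the genotype as well. Of 5 fibroblast genes 3 rose and 0 fell: the collagen genes Col3a1, by 1.27 (SE 0.23), and Col1a1, by 0.96 (SE 0.16), and the receptor gene Pdgfra, by 0.53 (SE 0.13), which lost its call without knockout array 2 or wild type array 1 or 2 (adjusted p = 0.0501 to 0.0743). Their summed intensity was 20108 to 29101 in knockout and 16098 to 19195 in wild type. All 5 endothelial genes fell, among them the VEGF receptor Kdr (-1.28, SE 0.11), the sialomucin Emcn (-1.24, SE 0.11) and VE-cadherin, Cdh5 (-1.04, SE 0.08), and their summed intensity was 1260 to 1410 in knockout and 2732 to 2986 in wild type. The summed intensity of the 33 macrophage and myeloid genes was 15241 to 23148 in knockout and 6627 to 7571 in wild type. None of these markers read 0, since the lowest intensity anywhere in the table was 11.3. The part of fibroblast and endothelial transcripts in the changes of the 33 genes was not tested.

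Of 6 muscle fibre genes, 3 rose and 2 fell. The slow troponins Tnni1 and Tnnt1 rose by 0.40 (SE 0.06) and 0.21 (SE 0.06) and Myh7 by 0.17 (SE 0.06), while myoglobin (Mb) changed by -0.41 (SE 0.06), muscle creatine kinase (Ckm) by -0.21 (SE 0.05) and Acta1 measured 0.05 (SE 0.05, adjusted p = 0.504). Myh7 lost its call without any 1 array except wild type array 1 (adjusted p = 0.0553 to 0.154), and Tnnt1 without knockout array 2 or wild type array 2 or 3 (0.0545 to 0.084). The summed intensity of the 6 genes was 236277 to 242808 in knockout and 231105 to 241373 in wild type. All 6 read near the top of the scale, where the highest value was 15.63. Whether this limits the size of their differences was not tested. The number called higher was 2 without knockout array 1, 3 or 4, and 1 without knockout array 2 or wild type array 2 or 3 and also in the fit blocked on replicate number, where the number called lower was 1.

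**Figure D5:**
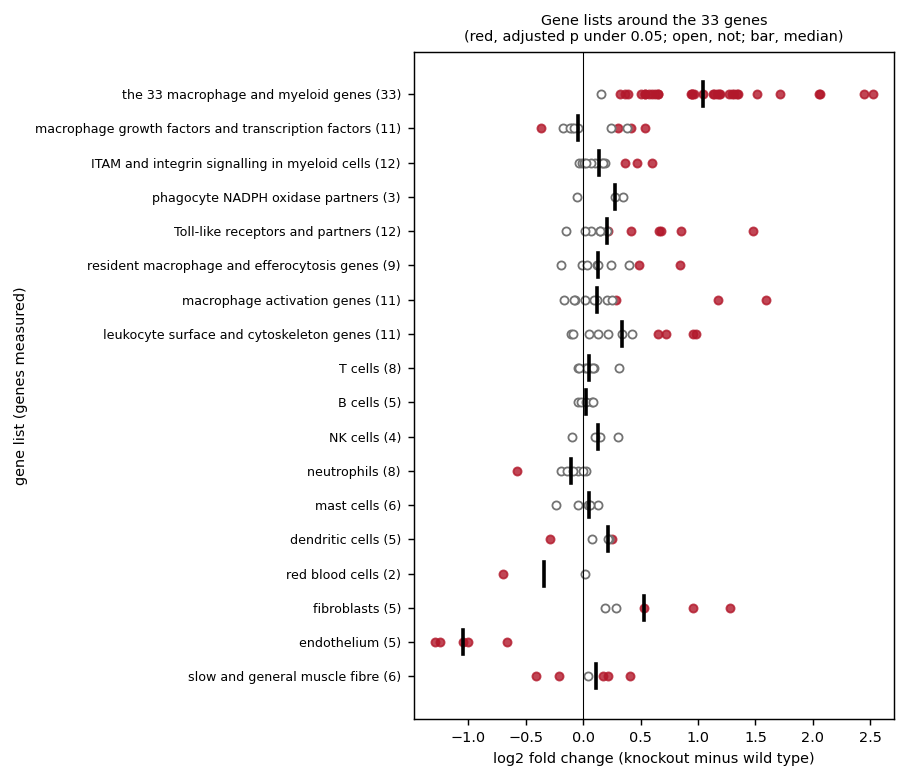
Log2 fold change (knockout minus wild type) of each gene in the set of 33 and in 17 lists around it, 1 row a list with the number measured, red where the adjusted p was under 0.05, open where not, with a bar at the list's median. The 33 genes have a median of 1.05, and the endothelial row lies wholly below 0. The rows of T, B, NK and mast cells and of the phagocyte NADPH oxidase partners hold no red point.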

How the data were processed

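Total RNA of mouse soleus was hybridised as biotin-labelled cRNA to one-colour Affymetrix arrays, per the labels' protocols. Linear intensities, 1 for each probe set of an array, were deposited by the authors. RMA is named per the submitters' processing notes, without its software, version or probe annotation. Array medians lay between 139.1 and 143.2. Precision is limited by how many arrays there are.

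The table held 22690 probe sets and 0 columns of other series. Of these, 64 were controls, 20380 had 1 gene symbol, 691 had several and 1555 had none. Symbols were updated through Entrez identifiers, which matched 12369 of 12393 genes in the RefSeq gene table. The probe set with the highest mean stood for each gene. Knockout was compared with wild type in limma 3.58.1 (lmFit and eBayes, two-sided, R 4.3.3) on log2(intensity + 1) over all 12393 genes, with no filter, Benjamini-Hochberg adjustment and a threshold of 0.05. Genes' other probe sets were tested over all 22626. The fit was tested on simulated data.

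The 33 genes, the lists and the rule for naming genes (every member, Yy1, up to 3 genes a list in each direction past the threshold, else the 2 with the smallest p, and the muscle fibre list in full) were chosen with earlier results of these data known. Lists are described by counts and medians, and the 33 genes and the lists of markers of other cell types also by summed intensity per array, with no test of a list. Replicate numbers did not pair the arrays (correlation of deviations 0.03, -0.13 and 0.02 for numbers 1, 2 and 3), so no block was used. No 2 arrays were duplicates: at most 1819 values were identical in a pair. The 17 alternatives left out each array in turn, used the replicate block, other pseudocounts (0 and 16), median centring, quantile normalization, genes above the median level, averaged probe sets, all probe sets, an intensity trend or array weights.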

Additional observations from a re-analysis of the deposited data

Results flagged for a closer look

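The highest or lowest of the 4 knockout arrays lay far from the other 3 (by Dixon's test at the 95% level, which chance passes in about 1 group in 20) in 6 of the 78 genes tested. Cd14 measured 7.16 in knockout array 3, against 6.81 to 6.86 in the other knockout arrays. Cd48 measured 6.59 in knockout array 3, against 6.12 to 6.14. Cytip measured 5.76 in knockout array 3, against 5.59 to 5.60, and Col1a1 measured 9.96 there, against 9.27 to 9.38. Pf4 measured 9.52 in knockout array 1, against 9.99 to 10.04, and Ckm 15.02 in knockout array 1, against 14.93 to 14.94. The wild type group of 3 arrays is too small for this test.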

How the results depend on the processing

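Of the 33 genes, 32 rose as reported, 0 fell under any of the 17 alternatives, and between 27 and 32 rose when 1 array was left out. In the fit blocked on replicate number 31 rose. Over genes above the median level, 18 of the 33 were tested and 18 rose, and 20 of the genes in the surrounding lists were called, against 39 as reported; fewer genes are tested in that setting. Over all settings, 27 of the 33 genes kept their call wherever they were tested, and Trem2, Fcgr1, Fcgr2b, Itgam and Itgb2 lost it in 21 of 546 recomputed values, with no change of sign. Besides the losses given above, Fcgr1 and Itgam lost their calls at log2(intensity + 16) (adjusted p = 0.0617 and 0.0547). Among the 44 other genes named, 12 lost a call in at least 1 setting. The replicate block ended the calls of Fcgr1, Cebpa, Nr1h3, Tgfb1, S100a9, Flt3, Ckm, Myh7 and Tnnt1 (adjusted p = 0.0511 to 0.158). Myh7 also lost its call over all probe sets (0.0527). Dim genes are read close to background, no detection call was used, and the size of their fold changes is limited by it. No scan date or slide was read, and batches were not tested.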
